A study of Homo sapiens with 6 samples.

Results

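The 10 genes described here encode inhibitors and nuclear regulators of TGF-beta and BMP signalling, several of them SMAD targets themselves, together with the ID proteins. They are SMAD6, SMAD7, SKIL, SKI, PMEPA1, BAMBI, TGIF1, ID1, ID2 and ID3, taken by symbol from the 67026 genes of a count table. All 10 had a row in the table, 9 passed the filter on low counts and ID3 was listed at 0 in every library. The study sequenced RNA from subcutaneous xenograft tumours of PC-3, a human cell line derived from a prostate cancer metastasis, and asked which transcripts differ when versican is knocked down. In shVCAN tumours the cells carried a lentiviral hairpin against VCAN, the gene of the matrix proteoglycan versican. In shGFP tumours, the knockdown control, they carried a hairpin against GFP. There were 3 numbered xenografts per group, referred to as tumours. What both groups share is puromycin selection at 2 μg/mL, injection under the skin in PBS with Matrigel, and growth followed for 4 weeks in male NSG mice (NOD.Cg-Prkdcscid Il2rgtm1Wjl/SzJ) of 4 to 5 weeks of age. These mice lack lymphocytes and natural killer cells but keep vessels, fibroblasts and myeloid cells, so the RNA of a tumour may hold mouse transcripts. Whether tumours of a group came from separate mice, and whether mouse reads were removed, is not stated in the labels, so p-values measure only the spread between these libraries.

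Ligands of the TGF-beta and BMP families bind pairs of serine/threonine kinase receptors, which phosphorylate receptor SMADs. These join SMAD4, enter the nucleus and switch on target genes, among them brakes on the same pathway. SMAD6 and SMAD7 are inhibitory SMADs that block receptors, BAMBI is a decoy receptor without a kinase, and PMEPA1 is a membrane protein that sequesters receptor SMADs. SKI, SKIL and TGIF1 are nuclear corepressors of SMAD complexes. ID1, ID2 and ID3 are helix-loop-helix proteins without a DNA-binding region that hold E proteins off DNA, and their genes are classical BMP targets.

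SMAD complexes bind the letters AGAC, and the promoters of genes that fell and of the gene that rose most are shown to let these be seen. RefSeq promoter windows (GRCh38.p14, 250 bases before to 50 after a start) were found for 9 of the 10 genes, with 20 windows in all. SKI was not matched. Capitals mark AGAC on either strand, which reads GTCT on the other. The stretches of SMAD6, SMAD7 and ID1 end at the start shown, and that of ID2 ends before its start. All were kept to at most 30 exonic bases of GENCODE 29. They are given 5′ to 3′ on the strand of the gene, for SMAD6 (chr15:66701986-66702235, plus strand), the second start of SMAD7 (chr18:48949334-48949583, minus strand), ID1 (chr20:31605039-31605288, plus strand) and a site before the RefSeq start of ID2 (chr2:8681944-8681973, plus strand). In GENCODE 29 this ID2 site lies inside the gene, in an exon of a longer transcript, so only these 30 bases are shown.
SMAD6: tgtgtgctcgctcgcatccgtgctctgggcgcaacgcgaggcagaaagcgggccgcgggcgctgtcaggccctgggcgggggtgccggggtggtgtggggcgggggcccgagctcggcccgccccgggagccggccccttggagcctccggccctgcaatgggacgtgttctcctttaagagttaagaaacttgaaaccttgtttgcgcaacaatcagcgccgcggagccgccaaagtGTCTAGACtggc
SMAD7: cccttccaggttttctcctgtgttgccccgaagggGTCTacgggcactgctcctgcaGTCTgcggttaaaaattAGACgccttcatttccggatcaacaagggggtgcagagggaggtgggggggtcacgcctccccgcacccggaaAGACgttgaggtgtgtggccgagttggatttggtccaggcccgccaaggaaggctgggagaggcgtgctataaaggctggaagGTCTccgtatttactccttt
ID1: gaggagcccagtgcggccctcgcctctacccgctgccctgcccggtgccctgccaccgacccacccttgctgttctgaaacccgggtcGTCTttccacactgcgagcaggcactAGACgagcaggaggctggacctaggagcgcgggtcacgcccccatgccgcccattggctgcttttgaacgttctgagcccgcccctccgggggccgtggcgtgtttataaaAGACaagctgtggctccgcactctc
ID2: cgcccgctcGTCTtgatAGACgtgccacct

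The SMAD6 window held the palindrome GTCTAGAC, which is made of AGAC on each strand and begins 12 bases before the start. Of the 20 windows this was the only one with the palindrome, and 0.202% of all 35116 windows of the RefSeq table hold it. AGAC itself was in all 20 windows and in 84% of all windows, with a median of 2 matches per window over the table. ID1 had 3 matches, SMAD6 and ID2 had 2 each, and the 3 listed starts of SMAD7 had 4, 5 and 2 in their listed order. The second start of SMAD7 is shown because the stretch before the first is exonic. GGCGCC, a GC-rich element bound by SMAD1 and SMAD5, was in 3 of the 20 windows, with 3 matches before BAMBI and 1 each before SKIL and the first start of PMEPA1, and in 19.2% of all windows. The E-box CANNTG, to which E proteins bind, was in 10 of the 20 windows and in 68.7% of all, and TATAAA in 3 and in 11.5%. TATAAA began 31 bases before the ID1 start. Each motif was searched on both strands, and a match describes letters in the window only.

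Libraries held 12959840 to 13327617 counts in shVCAN and 11253058 to 12936539 in shGFP. VCAN, the targeted gene, had 69, 39 and 44 counts in the shVCAN tumours, against 133, 104 and 121 in the shGFP tumours, and fell with a log2 fold change of −1.53 (SE 0.207, edgeR adjusted p = 4.59e-07). For VCAN alone, permuting the tumours exactly (two-sided) gave p = 0.1, the smallest that 3 against 3 allows. Messenger RNAs of the mitochondrial genome took 6.39% to 7.63% of the counts in shVCAN tumours, against 13.3% to 16.2% in shGFP tumours. Leaving these transcripts out of the fit changed the call of none of the 10 genes. Log2 fold changes were lower for longer genes, with a Spearman correlation with exonic length of −0.23 across 16003 genes of the same libraries, and the part of this trend in the results was not tested beyond a fit with a length and GC offset. The 7 epithelial keratins and surface markers, which fit an epithelial line, summed to 1421 to 1460 CPM (read counts normalised to TMM library size) in shVCAN tumours, against 1791 to 2015 CPM in shGFP tumours. Of these 7 markers 6 were called lower, where 21.1% of all tested genes were called lower. The prostate marker KLK3, which PC-3 is known to lack, was listed at 0.

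Across all 16254 tested genes, 40.3% were called at an edgeR quasi-likelihood adjusted p under 0.05 (19.2% higher and 21.1% lower in shVCAN tumours). Against that background, 7 of the 9 tested genes of the group were called. ID1, TGIF1 and PMEPA1 rose in shVCAN tumours, and SMAD7, SMAD6, ID2 and SKI fell. BAMBI and SKIL were not called. The shVCAN and shGFP tumours did not overlap in CPM for the same 7 genes, 3 higher and 4 lower, where 48.7% of all tested genes did not overlap (23.9% higher and 24.8% lower). The median log2 fold change of the 9 genes was −0.23, against 0.0014 over all tested genes, and the median size without regard to sign was 0.64 against 0.28. A call together with at least a 2-fold difference was seen for 1 of them, SMAD7, and for 885 genes, or 5.44% of all 16254 tested. With so many genes called in this comparison, a call alone says little about these genes.

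**Figure D1:**
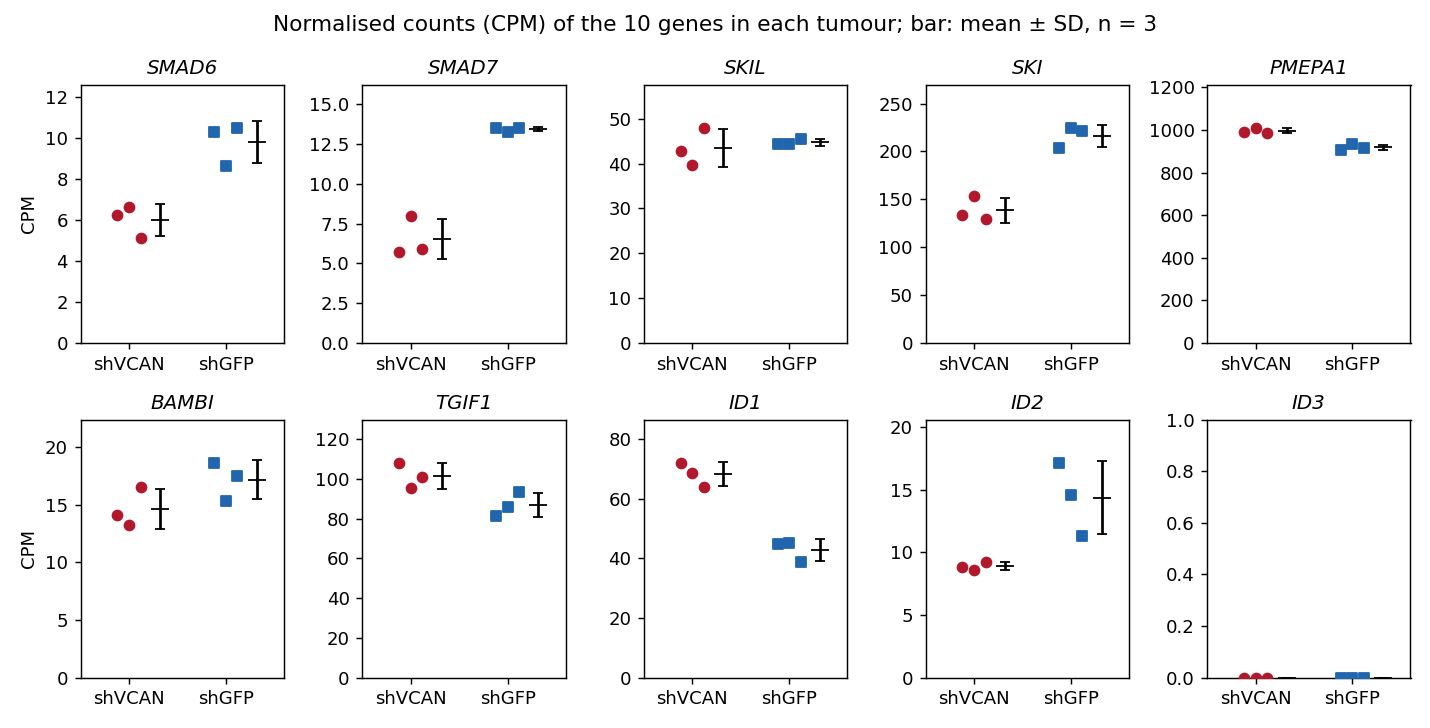
Normalised read counts (CPM, TMM-scaled) of the 10 genes in each tumour, with the mean ± SD of 3 tumours beside the points. SMAD6, SMAD7, SKI and ID2 are lower and ID1, TGIF1 and PMEPA1 higher in every shVCAN tumour than in any shGFP tumour, BAMBI and SKIL overlap, and ID3 is listed at 0.

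The inhibitory SMADs were lower in shVCAN tumours. SMAD7 (ENSG00000101665.9, chromosome 18, 48919853 to 48952052, minus strand, GRCh38) recruits SMURF ubiquitin ligases to activated receptors. It had 5.73, 7.97 and 5.91 CPM in the shVCAN tumours, against 13.5, 13.3 and 13.5 CPM in the shGFP tumours. The shGFP tumours lay close together, and the highest shVCAN tumour, the second, stayed well under all of them. The log2 fold change was −1.04 (SE 0.163, edgeR adjusted p = 5.77e-06), so that SMAD7 fell by 51.2 percent, and 5.83% of all tested genes changed by more. SMAD6 (ENSG00000137834.15, chromosome 15, 66702228 to 66782848, plus strand), which acts mainly on BMP signalling, had 6.24, 6.63 and 5.11 CPM in shVCAN tumours. In shGFP tumours it had 10.3, 8.64 and 10.5 CPM, so the groups were apart although 1 shGFP tumour, the second, lay lower than the others. The log2 fold change was −0.71 (SE 0.177, edgeR adjusted p = 0.00165). Both genes rest on few reads, with 70 to 113 counts per shVCAN tumour and 93 to 162 per shGFP tumour, and carry the widest standard errors of the 9 genes.

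Because a ratio of 2 genes within a tumour does not depend on how libraries are scaled, 4 pairs were also compared as ratios of raw counts. The SMAD7 to SMAD6 ratio was 0.919, 1.20 and 1.16 in shVCAN tumours, against 1.31, 1.54 and 1.29 in shGFP tumours. Every shVCAN tumour had a lower ratio than any shGFP tumour. The difference in the mean log2 ratio was −0.34 (exact two-sided permutation p = 0.1, the smallest this design allows, and 0.133 after Benjamini-Hochberg adjustment over the 4 ratios).

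Of the paralogous corepressors SKI and SKIL, SKI fell and SKIL was not called. SKI (ENSG00000157933.10, chromosome 1, 2228695 to 2310119, plus strand) had 133.4, 153.4 and 129.0 CPM in shVCAN tumours, against 203.3, 224.6 and 220.8 CPM in shGFP tumours. All shVCAN tumours were well below all shGFP tumours, and the log2 fold change was −0.64 (SE 0.0617, edgeR adjusted p = 8.41e-10). SKIL (ENSG00000136603.14, chromosome 3, 170357678 to 170396835, plus strand), which encodes SnoN, had 42.8, 39.7 and 47.9 CPM in shVCAN tumours and 44.3, 44.3 and 45.5 CPM in shGFP tumours. The shVCAN tumours spread to both sides of the shGFP tumours. The log2 fold change was −0.04, with a 95% interval of −0.21 to 0.13 (edgeR adjusted p = 0.732), and its sign turned to 0.12 when libraries were scaled by size alone. The SKIL to SKI ratio was 0.320, 0.259 and 0.372 in shVCAN tumours, against 0.218, 0.197 and 0.206 in shGFP tumours. It was thus higher in every shVCAN tumour, by 0.60 on the log2 scale (exact permutation p = 0.1, adjusted p = 0.133). TGIF1 (ENSG00000177426.21, chromosome 18, 3411608 to 3459978, plus strand), a homeodomain corepressor, had 108.1, 95.5 and 100.8 CPM in shVCAN tumours, against 81.4, 85.8 and 93.6 CPM in shGFP tumours. The nearest tumours of the groups almost met, and the log2 fold change was 0.22 (SE 0.0674, edgeR adjusted p = 0.00829). That call was lost without the first shVCAN tumour (adjusted p = 0.0836) and without the first shGFP tumour (adjusted p = 0.0629), and the value was 0.39 with library size alone.

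Of the membrane inhibitors, PMEPA1 rose slightly and BAMBI was not called. PMEPA1 (ENSG00000124225.16, chromosome 20, 57648392 to 57711536, minus strand) had 993.0, 1010.0 and 985.9 CPM in shVCAN tumours, against 908.6, 932.3 and 915.3 CPM in shGFP tumours. Spread within groups was small, and the log2 fold change of 0.12 (SE 0.0413, edgeR adjusted p = 0.0235) is a rise of 8.45 percent. Its value was 0.28 with library size alone and 0.25 with the length and GC offset (adjusted p = 7.98e-07), and the call was lost without the first shVCAN tumour (adjusted p = 0.069), the first shGFP tumour (adjusted p = 0.0632) or the third shGFP tumour (adjusted p = 0.0679). BAMBI (ENSG00000095739.11, chromosome 10, 28677342 to 28682939, plus strand) had 14.1, 13.3 and 16.6 CPM in shVCAN tumours and 18.7, 15.3 and 17.5 CPM in shGFP tumours. The groups overlapped. The log2 fold change was −0.23 with a 95% interval of −0.50 to 0.03 (edgeR adjusted p = 0.159), it was −0.07 with library size alone, and it was called only when exonic length and GC content entered as an offset, at −0.35 (adjusted p = 0.0255). The PMEPA1 to BAMBI ratio was 70.5, 76.1 and 59.5 in shVCAN tumours and 48.7, 60.8 and 52.2 in shGFP tumours, which overlap (exact permutation p = 0.2, adjusted p = 0.2).

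Exons of PMEPA1 share 343 bases, 6.1% of its exonic length, with NKILA, a long noncoding RNA on the opposite strand known as an inhibitor of NF-kappaB signalling. NKILA was named after its values were seen. It had 20.8, 23.3 and 25.5 CPM in shVCAN tumours, against 8.91, 11.6 and 10.4 CPM in shGFP tumours, and rose, with a log2 change of 1.17 (SE 0.132, edgeR adjusted p = 1.82e-08). Whether counting used strand is not stated, so reads of the shared bases cannot be told apart between the genes. ID2 likewise shares 38 exonic bases with ID2-AS1 on the opposite strand, which had 4, 8 and 14 counts in shVCAN tumours and 1, 2 and 0 in shGFP tumours and was too low to test. The other members share no exonic base with another gene of GENCODE 29, and the TGIF1 pseudogene TGIF1P1 held 0 counts.

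The ID genes moved in opposite directions. ID1 (ENSG00000125968.9, chromosome 20, 31605283 to 31606515, plus strand), a gene of 1233 exonic bases, had 72.1, 68.6 and 64.0 CPM in shVCAN tumours, against 44.8, 45.1 and 38.7 CPM in shGFP tumours. Every shVCAN tumour was far above every shGFP tumour, and the log2 fold change was 0.67 (SE 0.0786, edgeR adjusted p = 3.93e-08), a rise of 59.1 percent. ID1 is the shortest of the 10 genes by exonic length, and with the length and GC offset its log2 fold change was 0.51 (adjusted p = 2.07e-07). ID2 (ENSG00000115738.10, chromosome 2, 8678845 to 8684453, plus strand) had 8.86, 8.61 and 9.27 CPM in shVCAN tumours, against 17.2, 14.6 and 11.3 CPM in shGFP tumours. The shVCAN tumours lay close together, while the shGFP tumours were spread, and the third came nearest to the shVCAN tumours. The log2 fold change was −0.69 (SE 0.156, edgeR adjusted p = 0.000609). The ID2 to ID1 ratio was 0.123, 0.126 and 0.145 in shVCAN tumours, against 0.383, 0.324 and 0.292 in shGFP tumours. Its difference of −1.34 on the log2 scale was the largest of the 4 ratios (exact permutation p = 0.1, adjusted p = 0.133). A relative of these genes, ID4, had 3 to 10 counts in shVCAN tumours and 1 to 10 in shGFP tumours and was not tested.

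ID3 (ENSG00000117318.9, chromosome 1, 23557918 to 23559794, minus strand) was listed at 0 in all 6 libraries. The ribosomal protein genes RPL7A and RPS25 were also listed at 0 in all 6, although every cell uses them. A listed 0 is therefore not read here as absence of the transcript, and no limit on the level of ID3 is given.

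**Figure D2:**
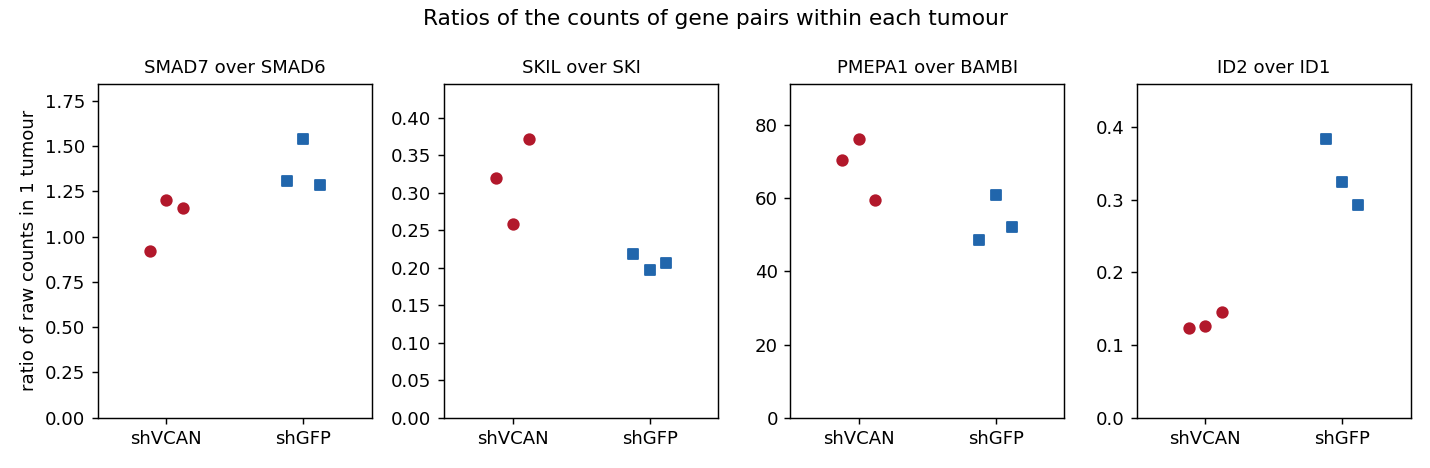
Ratios of raw counts of gene pairs in each tumour. The shVCAN tumours lie below the shGFP tumours for SMAD7 over SMAD6 and ID2 over ID1, above them for SKIL over SKI, and overlap them for PMEPA1 over BAMBI.

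Levels were compared between genes as CPM per kilobase of exon. PMEPA1 was by far the most abundant, at 177 ± 2.20 in shVCAN tumours and 164 ± 2.18 in shGFP tumours (SD, n = 3 each). Averaged over all 6 tumours, PMEPA1 lay above 98.9% of the tested genes with a known exonic length. ID1 came next in shVCAN tumours at 55.3 ± 3.29, ahead of SKI at 22.8 ± 2.14, whereas in shGFP tumours ID1 at 34.8 ± 2.91 and SKI at 35.6 ± 1.86 overlapped. TGIF1 followed at 12.3 ± 0.771 in shVCAN tumours and 10.6 ± 0.754 in shGFP tumours. BAMBI at 6.33 ± 0.743, SKIL at 5.58 ± 0.538 and ID2 at 4.04 ± 0.151 formed a middle tier in shVCAN tumours, in which BAMBI and SKIL overlapped. In shGFP tumours the tier was BAMBI at 7.42 ± 0.731, ID2 at 6.51 ± 1.32 and SKIL at 5.74 ± 0.0871, in which ID2 overlapped with both. The inhibitory SMADs were lowest, SMAD7 at 1.30 ± 0.247 and SMAD6 at 0.700 ± 0.0925 in shVCAN tumours, against 2.67 ± 0.0251 and 1.15 ± 0.120 in shGFP tumours.

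**Figure D3:**
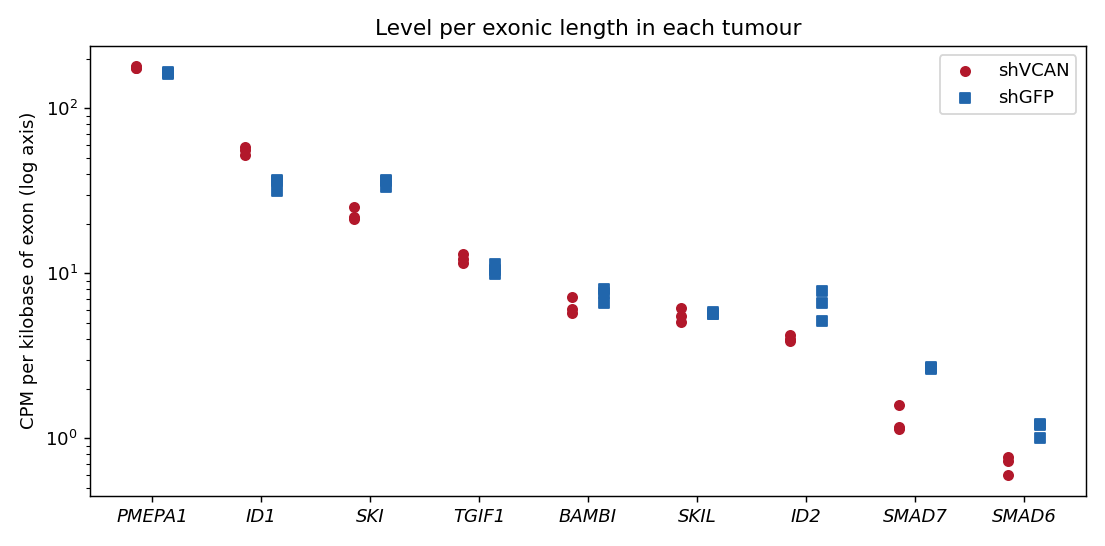
Level of the 9 detected genes in each tumour as CPM per kilobase of exon, on a log axis and ordered by the shVCAN mean. PMEPA1 stands at 177 in shVCAN tumours and 164 in shGFP tumours, and SMAD6 lowest at 0.700 in shVCAN tumours and 1.15 in shGFP tumours.

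The rest of the pathway was read from 6 lists, with up to 4 called genes of smallest p named in each. Among ligands and antagonists, some genes that rose are named as well. Over all tested genes 19.2% rose and 21.1% fell (median log2 fold change 0.0014), so a count of calls alone says little about a list. Among ligands and secreted antagonists, 7 of 25 tested genes rose and 8 fell (median log2 fold change −0.12). GDF15, a divergent family member and stress cytokine, fell to 14.5 ± 2.10 CPM in shVCAN tumours, against 61.3 ± 3.76 CPM in shGFP tumours (log2 fold change −2.08, SE 0.0996). The BMP antagonists chordin (CHRD) and noggin (NOG) fell as well, CHRD to 50.2 ± 1.82 CPM in shVCAN tumours, against 105.3 ± 3.09 CPM in shGFP tumours, and NOG to 158.8 ± 9.87 CPM in shVCAN tumours, against 283.95 ± 9.95 CPM in shGFP tumours. The ligand TGFB1 had a log2 fold change of −0.75 (SE 0.0585). Among the 7 that rose were TGFB2 by 1.07 (SE 0.113), FSTL3 by 1.09 (SE 0.108) and CHRDL1 by 0.71 (SE 0.107) on the log2 scale. Of 14 tested receptors and co-receptors, 2 rose and 4 fell (median −0.17). The type I receptor TGFBR1 rose to 38.6 ± 2.56 CPM in shVCAN tumours, against 27.4 ± 0.239 CPM in shGFP tumours, while the type II receptor TGFBR2 fell to 140.6 ± 5.95 CPM in shVCAN tumours, against 193.95 ± 2.62 CPM in shGFP tumours. The activin receptor ACVR2B fell by 0.62 (SE 0.116) and the BMP co-receptor RGMB by 0.30 (SE 0.0628) on the log2 scale. The call of RGMB was lost with library size alone (adjusted p = 0.0854).

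Of 24 tested SMADs, partners and turnover genes, 2 rose and 12 fell (median −0.18). The shares over all tested genes, 19.2% higher and 21.1% lower, apply to this and the next lists too. SMURF1 and SMURF2, the ubiquitin ligases that SMAD7 recruits, fell with SMAD7, SMURF1 to 47.99 ± 3.71 CPM in shVCAN tumours, against 84.5 ± 4.50 CPM in shGFP tumours, and SMURF2 to 123.6 ± 6.35 CPM in shVCAN tumours, against 161.6 ± 2.48 CPM in shGFP tumours. The kinase HIPK2 had a log2 fold change of −1.01 (SE 0.0597) and the coactivator CREBBP one of −0.62 (SE 0.0635). Of 24 tested TGF-beta and activin targets, 3 rose and 12 fell (median −0.22). Fibronectin (FN1) fell to 232.5 ± 4.52 CPM in shVCAN tumours, against 366.7 ± 3.66 CPM in shGFP tumours. The AP-1 member JUNB, the matricellular CCN2 and the repressor BHLHE40 stood at −0.94 (SE 0.0852), −0.54 (SE 0.0499) and −0.55 (SE 0.0632) on the log2 fold change scale. Of 9 tested BMP targets outside the group, 3 rose, 1 fell and 5 were not called (median −0.07). The transcription factors SOX9, HEY1 and MSX1 rose, by log2 fold changes of 0.23 (SE 0.047), 0.28 (SE 0.0579) and 0.23 (SE 0.0669), and DLX2 had −1.27 (SE 0.486) at a mean of 0.647 CPM in shVCAN tumours and 1.57 CPM in shGFP tumours. The call of DLX2 was lost without the first shVCAN tumour (adjusted p = 0.202) and without any 1 of the shGFP tumours (adjusted p = 0.0751 to 0.0896). Of 5 tested bHLH partners of ID proteins, the E protein TCF4 fell, with a log2 fold change of −0.26 (SE 0.0666; scaling by library size alone gave an adjusted p of 0.296 and the length and GC offset 0.0506), and 4 were not called. These were the E proteins TCF3 at −0.05 (SE 0.0648) and TCF12 at −0.04 (SE 0.0719), TWIST1 at −0.14 (SE 0.0917) and LYL1 at 0.63 (SE 0.333). Called genes of these lists had an edgeR adjusted p of at most 0.0452.

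**Figure D4:**
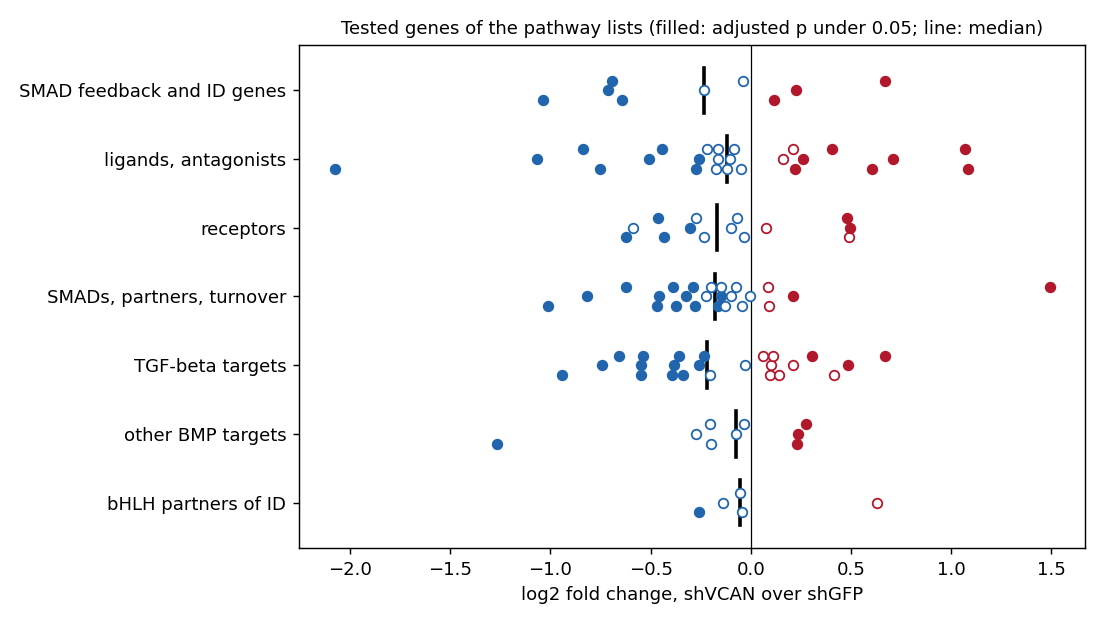
Log2 fold changes (shVCAN over shGFP) of the tested genes of the group and of 6 pathway lists, filled where the edgeR adjusted p is under 0.05, red above and blue below 0, with the median as a line. The medians lie between −0.23 for the SMAD feedback and ID genes and −0.05 for the bHLH partners, and each list spreads to both sides of 0.

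Endothelial cells and fibroblasts also express SMAD7, SMAD6 and ID genes, and markers of these cells differed between the groups. Over all tested genes, 19.2% rose and 21.1% fell. Of 9 tested endothelial markers 1 rose and 6 fell, and the 14 listed markers summed to 199 to 205 CPM in shVCAN tumours, against 252 to 266 CPM in shGFP tumours. Of the 6 that fell, PECAM1 averaged 24.1 ± 0.989 CPM in shVCAN tumours, against 33.4 ± 1.13 CPM in shGFP tumours (SD, n = 3 each), KDR 24.0 ± 1.45 CPM in shVCAN tumours, against 45.5 ± 2.63 CPM in shGFP tumours, and CDH5 0.885 ± 0.277 CPM in shVCAN tumours, against 5.87 ± 0.585 CPM in shGFP tumours. The others that fell were ESAM (log2 fold change −1.18, SE 0.377), TIE1 (−0.39, SE 0.0755) and ROBO4 (−0.24, SE 0.0884). EGFL7 was the 1 that rose, at 49.1 ± 5.54 CPM in shVCAN tumours, against 41.2 ± 1.87 CPM in shGFP tumours. VWF and CLDN5 held at most 8 and 6 counts in any library. Of 10 tested fibroblast and pericyte markers 2 rose and 6 fell, and the 14 listed summed to 434 to 534 CPM in shVCAN tumours, against 882 to 987 CPM in shGFP tumours. Collagen COL1A1 averaged 300.5 ± 48.9 CPM in shVCAN tumours, against 618.8 ± 37.5 CPM in shGFP tumours, COL1A2 13.9 ± 2.78 CPM in shVCAN tumours, against 72.1 ± 10.4 CPM in shGFP tumours, and FAP 9.76 ± 1.06 CPM in shVCAN tumours, against 22.3 ± 3.13 CPM in shGFP tumours. The 2 that rose were RGS5 and NOTCH3. RGS5 averaged 30.5 ± 4.73 CPM in shVCAN tumours, against 21.9 ± 1.34 CPM in shGFP tumours. NOTCH3 averaged 10.5 ± 1.21 CPM in shVCAN tumours, against 7.02 ± 0.626 CPM in shGFP tumours. DCN had counts in 1 library and THY1 was listed at 0. Of 13 macrophage markers, 6 were listed at 0, among them the C1Q genes, and the sum was 4.45 to 6.49 CPM in shVCAN tumours, against 5.66 to 8.83 CPM in shGFP tumours. Skeletal muscle markers summed to 180 to 274 CPM in shVCAN tumours and 226 to 402 CPM in shGFP tumours, with 4 of 6 tested lower. In bulk RNA, fewer cells of a type and less RNA per cell cannot be told apart. Whether mouse reads were removed is not stated, so marker counts of mouse cells and of human PC-3 cells cannot be told apart. The part of any of these cells in the changes of the SMAD and ID genes was not tested.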

How the data were processed

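Paired reads were made from total RNA of PC-3 xenograft tumours, per the labels' protocols. The submitters' processing notes name hg38, STAR, Trim Galore and DESeq2, with no version, role or order. The authors deposited raw read counts per gene. No source used here gives the counting program or its strand setting. A further group that the growth protocol mentions was not analysed here.

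Of 67071 rows, 45 second copies of pseudoautosomal genes were left out. Symbols came from a gene table and GENCODE 29, which also gave coordinates and union exonic lengths on GRCh38. Counts were tested over the whole table in R 4.3.3 with edgeR 4.0.16 (quasi-likelihood test, TMM scaling, filterByExpr, group only, Benjamini-Hochberg over 16254 genes). Calls, and the words rose and fell, need an adjusted p under 0.05. CPM use TMM library sizes, SE is the log2 fold change over the square root of F, and 95% intervals use the t distribution with the fit's degrees of freedom. The procedure was tested on simulated data. The common biological coefficient of variation was 6.63%. Library pairs differed more than counting error gives, at a chi-square per gene of 3.22 to 5.90 within groups and 40.6 to 69.9 between groups. Counts come from amplified libraries, so counting error is a lower limit of the error.

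The members and lists were chosen with earlier results of these data known. Named are all members, VCAN and up to 4 called genes of smallest p in each pathway list. TGFB2, FSTL3 and CHRDL1 were named in addition, after their values were seen, because they rose. Marker lists were endothelial cells, fibroblasts and pericytes, macrophages, skeletal muscle, epithelial keratins, androgen receptor axis and mitochondrial messenger RNAs. A ratio of ID3 to ID1 was planned and had no value. Alternatives tried were scaling by library size alone, by upper quartiles or by DESeq2 size factors, no mitochondrial messenger RNAs, other filters, limma-voom (limma 3.58.1), DESeq2 1.42.0 with its Wald test, the replicate number as a block, exonic length and GC content as an offset, each tumour left out, and stricter thresholds.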

Additional observations from a re-analysis of the deposited data

How the results depend on the processing

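Of 874 recomputed values for 51 results, 794 kept their direction and their side of the threshold. The calls of SMAD6, SMAD7, SKI, ID1 and ID2 and that of VCAN held in all 16 alternative fits, and with an adjusted p under 0.01 PMEPA1 was the 1 member that lost its call. Over the 16 fits the log2 fold change lay between −1.20 and −0.87 for SMAD7, −0.79 and −0.54 for SMAD6, −0.72 and −0.47 for SKI, −0.83 and −0.52 for ID2 and 0.51 and 0.84 for ID1. With library size alone, which moved the median of all genes to 0.17, 5228 genes were called higher and 1890 lower (73.4% of calls higher, against 47.7%). In this setting 4 ligands and antagonists were lower, 2 receptors lower, 4 SMADs and partners higher and 7 lower, 5 TGF-beta targets higher, and 0 BMP targets and 0 bHLH partners lower. The lower BMP target, DLX2, was also lost without a filter and with the Wald test of DESeq2 (0 lower each) and at an adjusted p under 0.01, where 1 receptor stayed higher. With the length and GC offset 1 SMAD or partner was higher and 2 BMP targets were lower. Where calls also needed a log2 fold change of 1 or more in size, 450 genes were higher and 435 lower, with 0 members higher and 1 lower, 2 ligands and antagonists higher and 2 lower, 0 receptors either way, 1 SMAD or partner higher and 1 lower, 0 TGF-beta targets either way, 0 BMP targets higher and 0 bHLH partners lower. The cause of these moves was not tested beyond what each setting removes.

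Leaving out 1 tumour at a time gave 1 to 3 members higher and 4 lower, 1 to 3 receptors higher, 1 to 2 SMADs and partners higher and 0 to 2 BMP targets lower. Over all genes the same fits called 2596 to 3086 higher and 2938 to 3438 lower, against 3120 and 3425 with all tumours. The 4 ratio differences kept their sign, over −0.41 to −0.22 for SMAD7 over SMAD6, 0.48 to 0.74 for SKIL over SKI, 0.27 to 0.45 for PMEPA1 over BAMBI and −1.43 to −1.24 for ID2 over ID1. Deviations of same-numbered tumours correlated at 0.018, 0.016 and −0.027, so no pairing by replicate number was seen in expression. Such correlations cannot tell whether same-numbered tumours were handled together. With the replicate block 3083 genes were called higher and 3428 lower, and it changed no call of a member. Depth limits SMAD6, SMAD7 and ID2 most, at 70 to 206 counts per tumour.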
